A study of Homo sapiens with 2 samples.

Results

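Solute carriers are the largest set of membrane transporters in human cells. They are named SLC, followed by a family number, the letter A and a member number, and they move amino acids, sugars, ions, metals, vitamins and nucleotides across membranes without burning ATP directly. The members described here are the genes of the deposited table whose symbol has exactly that form and whose level was at least 0.5 FPKM in at least 1 of the libraries. FPKM is a fragment count corrected for transcript length and library size, so that levels can be set side by side between genes. The table holds 228 genes with such a symbol among 18781, and 175 of them from 42 families passed the minimum (174 symbols, since SLC5A3 is listed under a pair of identifiers). The members were thus selected on measured values: 107 were at 0.5 FPKM or more in both libraries, 58 passed through the IMP1 library alone and 10 through the IgG library alone. Counts and medians over the members that passed are therefore descriptions, with no test.

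The libraries come from T47D, an established line of luminal breast cancer cells, wild type by its label. RNA immunoprecipitation followed by sequencing (RIP-seq) was used to find RNAs that associate with IMP1, an RNA-binding protein that controls the localization, stability and translation of mRNAs. Cell lysate was incubated with beads carrying an anti-IMP1 antibody or with beads carrying normal IgG, which picks up RNA that sticks without the antibody's target. There is 1 library for each, so no difference below has a replicate check and none was tested. A precipitate shows how much of an mRNA was recovered, and a low level in the cells and a low recovery cannot be told apart without an input library, which was not analysed here.

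Plasma membrane carriers decide what a cell takes up and releases. Many of them are made on the endoplasmic reticulum and reach the surface through the secretory route, some only together with a second subunit such as SLC3A2, the heavy chain of several amino acid exchangers. The SLC25 family, by contrast, is made on ribosomes in the cytosol and imported into the inner mitochondrial membrane, where it exchanges ADP for ATP and carries phosphate, citrate, aspartate, iron and cofactors. Breast cancer cells are known for their use of glutamine and leucine carriers and for zinc carriers of the SLC39 family, of which SLC39A6 is an oestrogen-regulated member. Classes were given by family, with a few single genes moved by textbook knowledge. That gave 101 plasma membrane carriers and 36 mitochondrial ones (SLC25 without the peroxisomal SLC25A17). Another 34 were classed as carriers of other membranes such as Golgi, endoplasmic reticulum and lysosome. Some single members, for example SLC10A7, SLC38A10, SLC41A3 and SLC50A1, may sit in another membrane than their class. The 4 members of SLC27, which handle fatty acids at several membranes, were not assigned.

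All FPKM values summed to 353885 with IMP1 and 1298363 with IgG, and 17579 and 11511 genes, respectively, were above 0. The listed values therefore lie on different overall scales, and IMP1 to IgG ratios were read beside those of all genes. The 7 luminal markers were present in both libraries, 4 of them at least 2-fold higher with IMP1 and 0 lower. KRT18 was at 143 FPKM with IMP1 and 25.8 FPKM with IgG, and EPCAM at 48.4 and 55.1 FPKM. Among all genes at 0.5 FPKM or more in a library, 36.0% were at least 2-fold higher and 37.9% at least 2-fold lower. Mesenchymal markers, which epithelial cells of this kind should lack, were lower in the IMP1 library for 6 of 6 genes. Their levels summed to 0.8 FPKM in the IMP1 library, where COL1A2, DCN, LUM and SPARC were at 0, and to 107.6 FPKM in the IgG library. Among blood cell markers CD74 stood at 6.42 and 305 FPKM and HLA-DRA at 0 and 17.4 FPKM, CD14 was under the minimum in both libraries, and the summed level was 6.4 and 322.2 FPKM. PTPRC, LYZ and CD3E were not analysed here. The part of these differences in the values below was not tested.

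Among solute carriers, members with a higher value in the IMP1 precipitate outnumbered those with a lower one. Of the 175 members, 83 (47.4%) had at least a 2-fold higher value with IMP1 on the scale of FPKM + 0.1, 41 (23.4%) were at least 2-fold lower and 51 lay between. Of all 13527 genes at 0.5 FPKM or more in a library, 36.0% were at least 2-fold higher and 37.9% at least 2-fold lower. The median log2 ratio was 0.77 over the members and -0.21 over those genes. For 42 of the 83 higher members the IgG level was at 0, meaning an exact zero or, for SLC25A10 alone, a value under 0.0001 FPKM, and such members have no fold. The share also depended on the scale: 66.9% of the members past 2-fold were higher as deposited, 80.9% after the IMP1 values were rescaled to the median gene and 92.9% after both libraries were brought to the same sum.

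**Figure D1:**
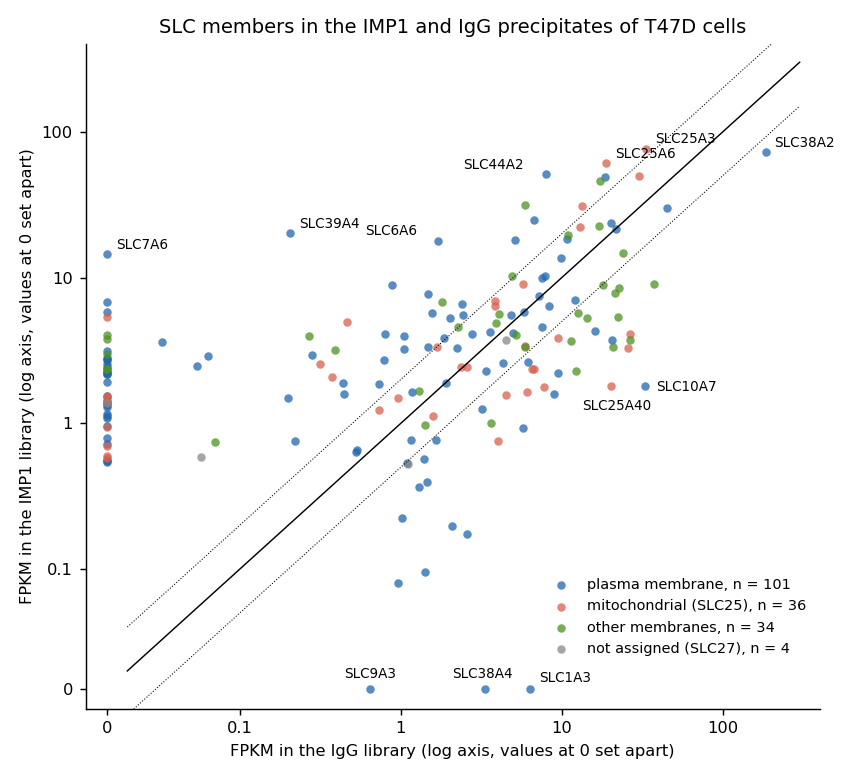
Each point is 1 of the 175 members, with its FPKM in the IgG library on the x axis and in the IMP1 library on the y axis (both log axes, values at 0 set apart), coloured by membrane class, with a solid line at equal values and dotted lines at 2-fold. A column of 42 points at 0 in the IgG library faces only 3 points at 0 in the IMP1 library, and SLC38A2, the highest member with IgG, lies below the lines at 72.1 and 184 FPKM.

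The balance changed once low values were set aside. Of the 91 members at 1 FPKM or more in both, 21 (23.1%) were higher by 2-fold or more with IMP1 and 28 (30.8%) lower, with a median log2 ratio of -0.00. Of the 6909 genes at that level, 11.5% were higher and 44.0% lower, with a median of -0.78. In this subset more members were lower than higher, while the share higher was above, and the share lower below, that of all genes. By rank within each library, which no rescaling changes, 115 of 175 members (65.7%) stood better with IMP1. The share was 51.4% over all genes at 0.5 FPKM or more in a library. Genes at 0 share the last rank, which was 17580 with IMP1 but 11512 with IgG, so ranks of the libraries are not fully comparable. SLC25A18, at 0.575 FPKM with IMP1 and 0 with IgG, thus ranked 11524 and 11512 and counted as better with IgG. The median rank was 6331 with IMP1 and 8462 with IgG for plasma membrane members, and 6578 and 6132, the other way, for SLC25. Gene by gene, however, 70 of 101 plasma membrane members and 23 of 36 SLC25 members stood better with IMP1.

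Plasma membrane carriers had a higher median ratio than the mitochondrial family over all members, and the size of the gap differed between subsets. Of the 101 plasma membrane members, 55 were higher with IMP1 by 2-fold or more, 20 lower and 26 between, with a median log2 ratio of 1.36. Of the 36 SLC25 members, 14 were higher, 10 lower and 12 between, with a median of 0.72. Only 64 of the 101 plasma membrane members and 25 of the 36 SLC25 members reached 0.5 FPKM with IgG. The rest of each class passed the minimum through the IMP1 library alone, which by itself favours higher ratios. Carriers of other membranes were evenly divided, with 12 of 34 higher, 11 lower and a median of 0.33, and the SLC27 genes gave 2 of 4 higher and 0 lower. Among members above 0 in both libraries the order of the classes turned over, with a median log2 ratio of 0.24 over 70 plasma membrane members and 0.31 over 28 SLC25 members.

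**Figure D2:**
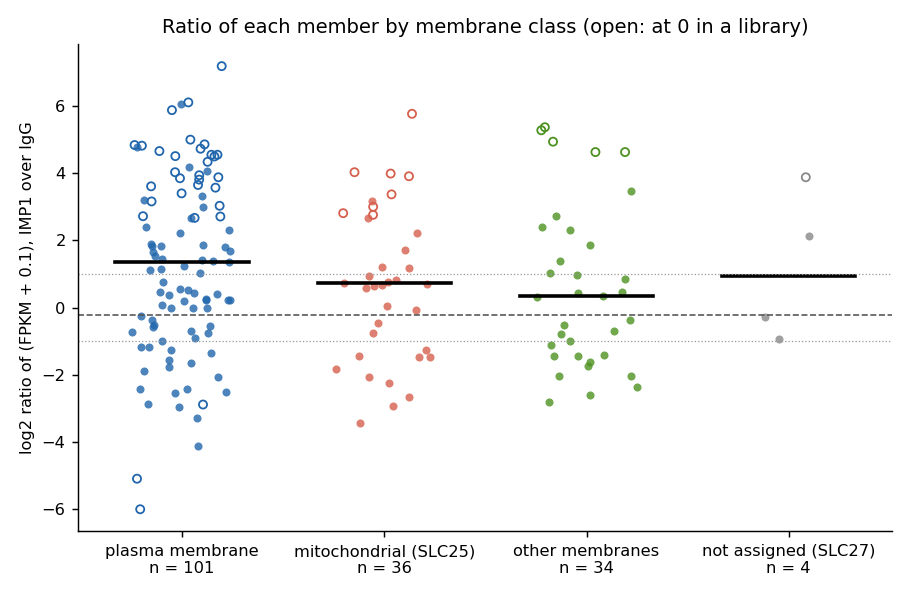
Each point is the log2 ratio of (FPKM + 0.1), IMP1 over IgG, of 1 member, with open points for members at 0 in a library, a thick bar at the class median, a dashed line at the median of all genes (-0.21) and dotted lines at 2-fold. The plasma membrane median lies at 1.36 and the SLC25 median at 0.72, and most of the points above 4 are open.

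Both classes were also compared within ranges of level, which do not match them exactly. With 1 FPKM or more in both libraries, 14 of 43 plasma membrane members were higher and 8 lower (median log2 ratio 0.23). In the same range 3 of 22 SLC25 members (13.6%) were higher and 9 (40.9%) lower (median -0.26), shares close to the 11.5% and 44.0% of all genes at that level. Where the range was set by the IMP1 level, at 1 to 10 FPKM, 41 of 62 plasma membrane members were higher and 7 lower (median 1.82), 21 of the 41 with IgG at 0, against 7 of 26 SLC25 members higher and 9 lower (median 0.31). Where it was set by the IgG level, at 1 to 10 FPKM, 13 of 46 plasma membrane members were higher and 14 lower (median -0.00), against 0 of 15 SLC25 members higher and 7 lower (median -0.77). At 10 FPKM and more with IgG the order was the opposite, with a median of -0.67 over 10 plasma membrane members and 0.75 over 8 SLC25 members. The median over all 3720 genes in that range was -1.57, below both classes. By IgG level, all genes had medians of -0.33 at 1 to 2 FPKM, -0.73 at 2 to 5 FPKM and -1.2 at 5 to 10 FPKM. By IMP1 level these medians were 0.46, -0.0 and -0.13. Shares of all genes past 2-fold in the 1 to 10 FPKM ranges are not given here. The difference of the medians was 0.64 over all members, 0.50 at 1 FPKM or more in both, 1.52 and 0.77 in the 1 to 10 FPKM ranges of the IMP1 and the IgG library, and -0.07 among members above 0 in both. A range set by one library fixes part of the ratio, genes are not replicates, and with 1 library for each antibody no test of this difference can be made.

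Zeros in the IgG library were most common among genes of low level. Of all genes with at least 0.5 FPKM in the IMP1 library, 27.2% were at 0 in the IgG library, against 28 of 91 plasma membrane members (30.8%), 8 of 36 SLC25 members (22.2%) and 5 of 34 members of other membranes (14.7%). In the range of 2 to 5 FPKM the share was 24.3% of all genes, 10 of 31 plasma membrane members (32.3%) and 0 of 12 SLC25 members, and of other membranes 5 of 15 (33.3%). At 10 FPKM and more it was 5.46% of all genes and 1 of 15 plasma membrane members, the latter being SLC7A6. In the other direction, 0 FPKM with IMP1 was listed for 7.58% of all genes with at least 0.5 FPKM in the IgG library, against 3 of 64 plasma membrane members (4.69%), namely SLC1A3, SLC38A4 and SLC9A3, and 0 of 25 SLC25 members. The depth of the libraries is unknown, so a value at 0 says only that the gene is listed there.

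**Figure D3:**
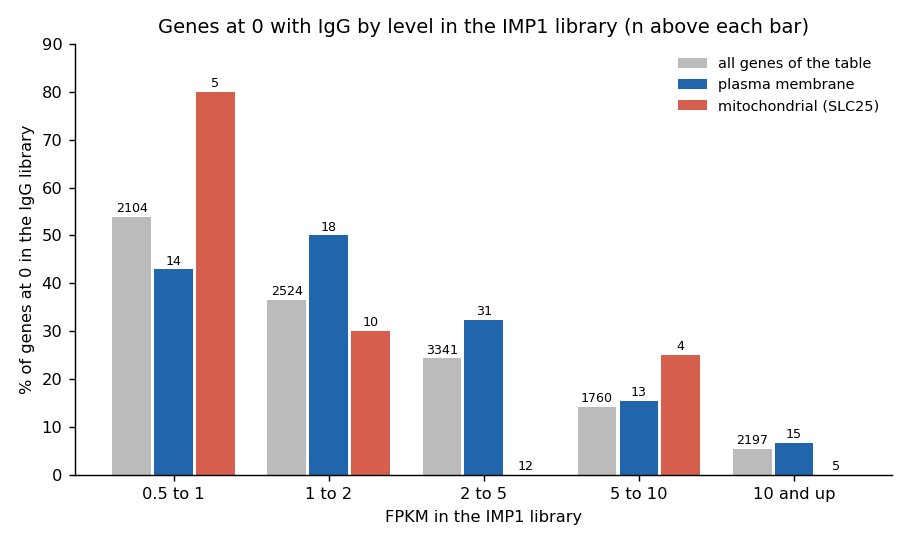
Bars give the percentage of genes at 0 in the IgG library within ranges of the level in the IMP1 library (FPKM), for all genes of the table, plasma membrane members and SLC25 members, with the number of genes above each bar. The share among all genes falls from 53.8% in the lowest range to 5.46% in the highest, and both member classes rest on few genes in each range.

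By summed level, the plasma membrane class held nearly the same share of all solute carrier FPKM in both libraries, with 614.8 of 1209.1 FPKM (50.8%) with IMP1 and 567.5 of 1158.9 FPKM (49.0%) with IgG. SLC25 held 324.0 FPKM (26.8%) and 256.3 FPKM (22.1%), and other membranes 264.1 FPKM (21.8%) and 329.4 FPKM (28.4%). A few genes carried these sums. SLC25A3, SLC25A5 and SLC25A6 made up 187.4 FPKM, or 57.9% of the SLC25 sum, with IMP1 and 82.2 FPKM, or 32.1%, with IgG. The other 33 SLC25 members summed to 136.6 FPKM with IMP1 and 174.1 FPKM with IgG. On the listed scale the direction of the SLC25 sum thus depended on those 3 genes, but the libraries lie on different scales. As a share of all FPKM of the library, SLC25 held 0.0916% with IMP1 and 0.0197% with IgG, and all members held 0.342% and 0.0893%. In the plasma membrane class SLC38A2 alone was 11.7% of the sum with IMP1 and 32.4% with IgG, and without it the other 100 members summed to 542.7 and 383.8 FPKM. Of the 20 highest members of each library, 8 were shared.

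Counts by role stand beside 36.0% of all genes higher and 37.9% lower at the same minimum. Amino acid carriers, 3 of them classed under other membranes (SLC36A1, SLC36A4 and SLC38A9), formed the largest role after the mitochondrial carriers. Of its 26 members, 12 were higher and 7 lower, with a median log2 ratio of 0.50. SLC38A2 (ENSG00000134294, hg19 chr12:46751972-46767561), a sodium-coupled carrier of small neutral amino acids that is induced when amino acids run short, was the highest solute carrier with IgG. It stood at 72.1 FPKM with IMP1 and 184 FPKM with IgG (log2 ratio -1.35). Its close relative SLC38A1, which takes up glutamine, was level at 21.5 and 21.8 FPKM. Also on the IgG side were SLC38A6 at 1.58 and 8.89 FPKM and SLC38A4 at 0 and 3.33 FPKM. The lysosomal arginine sensor SLC38A9 was there too, at 5.37 and 22.4 FPKM, while SLC38A10 stood at 4.22 and 3.59 FPKM. Of the 9 members of this family 5 were lower and 2 higher, and both higher members, SLC38A3 and SLC38A7, were at 0 in the IgG library.

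Members of the SLC1 and SLC6 families lay on both sides. SLC1A5, the glutamine and neutral amino acid exchanger on which many tumour cells draw, was at 48.8 FPKM with IMP1 and 18.6 FPKM with IgG (log2 ratio 1.39). SLC6A6, the taurine transporter, stood at 17.9 and 1.69 FPKM, which at 3.33 was the largest log2 ratio among members at 1 FPKM or more in both libraries. The creatine transporter SLC6A8 was at 3.99 and 1.05 FPKM. The glial-type glutamate transporter SLC1A3 went the other way, at 0 with IMP1 and 6.35 FPKM with IgG, as did SLC6A14, a carrier of neutral and basic amino acids, at 0.173 and 2.56 FPKM.

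SLC3A2, the heavy chain that brings its light chains to the surface, was nearly level at 23.8 FPKM with IMP1 and 20.2 FPKM with IgG. Its light chains did not follow a common ratio. SLC7A5, the leucine exchanger LAT1, stood at 18.4 and 10.7 FPKM (log2 ratio 0.77), SLC7A8 (LAT2) at 4.59 and 7.51 FPKM (-0.70), and SLC7A11, the cystine and glutamate exchanger, at 0.774 and 1.65 FPKM (-1.0). SLC7A6 (ENSG00000103064, chr16:68298433-68344849), a light chain that exchanges arginine for glutamine, was at 14.5 FPKM with IMP1 and at 0 with IgG, the highest IMP1 level of any member at 0 with IgG. The table gives the same span to SLC7A6OS, which stood at 4.80 and 1.72 FPKM, and how fragments of such overlapping genes were divided is not given in the sources used here. SLC3A1, the other heavy chain, was below the minimum at 0.0639 and 0.265 FPKM.

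**Figure D4:**
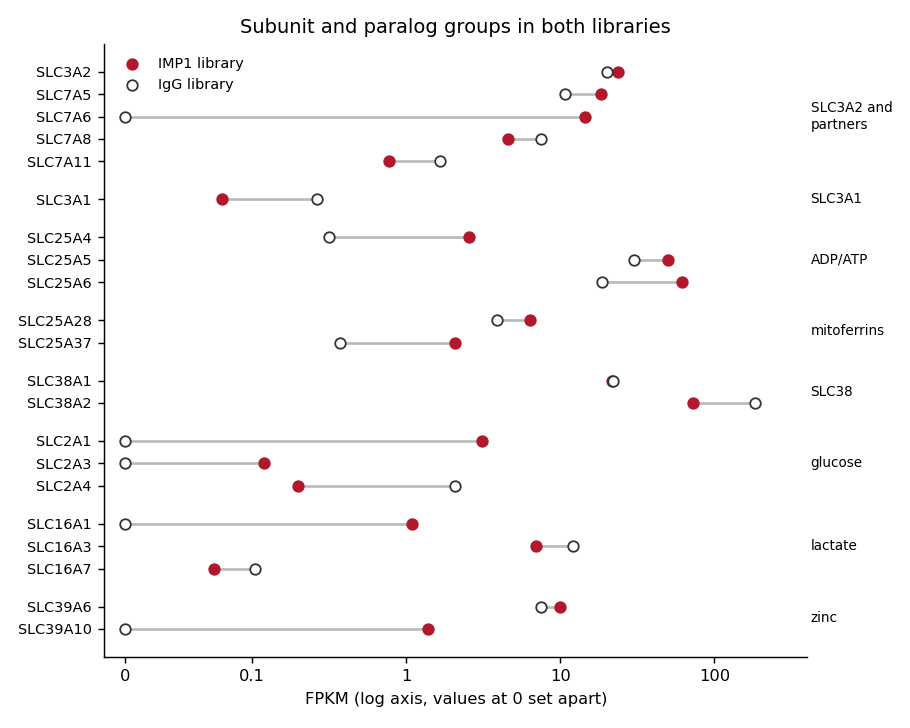
FPKM (log axis, values at 0 set apart) in the IMP1 library (filled) and the IgG library (open) for subunits and close relatives of the solute carriers. The ADP/ATP carriers lie to the right in the IMP1 library for all 3 genes, while the partners of SLC3A2, the glucose carriers and the lactate carriers each hold genes on both sides.

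Sugar carriers, taken by whole families and with SLC5A3 counted under both identifiers, gave 7 of 13 members higher and 3 lower. Not every member need carry sugar, and the lower ones include SLC5A12 of the SLC5 family (0.395 and 1.46 FPKM). Of the 7 higher members 6 were at 0 in the IgG library. Of all genes, 36.6% were at 0 with IgG at 1 to 2 FPKM with IMP1 and 24.3% at 2 to 5 FPKM. SLC2A1, the common glucose transporter GLUT1 (chr1:43391052-43424530), stood at 3.11 FPKM with IMP1 and 0 with IgG. SLC2A4, the insulin-responsive GLUT4 of muscle and fat, was on the opposite side at 0.198 and 2.08 FPKM (log2 ratio -2.87). The intracellular carriers SLC2A6 and SLC2A8 were at 4.02 and 2.97 FPKM with IMP1 and both at 0 with IgG. SLC50A1, a sugar carrier of internal membranes, had by far the highest level of the role at 45.6 and 17.3 FPKM (1.39). The multivitamin transporter SLC5A6, which falls here by family, stood at 13.6 and 9.86 FPKM, and SLC2A3 was below the minimum at 0.12 and 0 FPKM.

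The monocarboxylate family SLC16 gave 7 of 10 members higher and 2 lower, and all 7 were at 0 with IgG. SLC16A1, the lactate and pyruvate carrier MCT1, was at 1.09 FPKM with IMP1 and 0 with IgG. SLC16A3, the lactate exporter MCT4 and the highest of the family, was at 6.99 and 12 FPKM (log2 ratio -0.77). Those at 0 with IgG lay between 0.555 FPKM (SLC16A4) and 2.72 FPKM (SLC16A5) in the IMP1 library, a range in which zeros with IgG were common among all genes (24.3% of them at 2 to 5 FPKM, and more below). Of the family's members at 1 FPKM or more in both libraries, 0 of 2 were higher and 1, SLC16A9 at 1.26 and 3.18 FPKM, was lower.

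Carriers of vitamins and choline held 0 lower members, with 8 of 12 higher and 12 of 12 log2 ratios above 0. Of all genes at 0.5 FPKM or more in a library, 36.0% were higher and 37.9% lower. SLC44A2, a choline-like transporter, was among the highest members at 51.3 FPKM with IMP1 and 7.98 FPKM with IgG (log2 ratio 2.67). The riboflavin transporter SLC52A2 stood at 8.87 and 0.880 FPKM (3.19). The folate carrier SLC19A1 was at 4.07 and 0.792 FPKM, and the thiamine carrier SLC19A2 at 1.49 and 0.198 FPKM. At 1 FPKM or more in both libraries, 1 of 5 members of the role, SLC44A2, was higher and 0 lower. Of all genes at that level, 11.5% were higher and 44.0% lower. Phosphate and sulfate carriers were all at least 2-fold higher, 4 of 4. Among them were SLC20A1 at 6.57 and 2.39 FPKM and the sulfate carrier SLC26A2 at 2.89 and 0.0636 FPKM.

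Organic ion carriers gave 5 of 7 members higher and 1 lower. The 4 SLC22 members were all at 0 in the IgG library, the highest being SLC22A23 at 6.79 FPKM and the carnitine transporter SLC22A5 at 5.80 FPKM in the IMP1 library. SLC22A18 stood at 2.44 FPKM and SLC22A17 at 0.718 FPKM with IMP1. Of all genes, 14.2% were at 0 with IgG at 5 to 10 FPKM with IMP1, 24.3% at 2 to 5 FPKM and 53.8% at 0.5 to 1 FPKM. SLC22A23 shares its span with TUBB2B (0.374 and 11.8 FPKM) and PSMG4 (1.95 FPKM and 0), and SLC22A5 with 4 genes, of which P4HA2 (4.44 and 9.71 FPKM) and AC034220.3 (0 and 11.6 FPKM) were above the minimum. SLC10A7 (ENSG00000120519, chr4:147175127-147443123), of the bile acid carrier family, lay at the other end. It stood at 1.80 FPKM with IMP1 and 32.9 FPKM with IgG, and its log2 ratio of -4.12 was the smallest among members above 0 in both libraries.

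Ion and acid-base carriers were close to balance, with 8 of 21 higher, 5 lower and a median log2 ratio of 0.18. The chloride and bicarbonate exchanger SLC4A2 was level at 5.80 FPKM in both libraries, and the sodium-bicarbonate carrier SLC4A7 stood at 5.49 and 4.84 FPKM. Cation-chloride cotransporters, which set cell volume, went both ways. The potassium-chloride cotransporters SLC12A4 (5.74 and 1.56 FPKM) and SLC12A7 (2.48 and 0.0538 FPKM) were higher with IMP1, whereas SLC12A2, which brings sodium, potassium and chloride in, was at 0.921 and 5.71 FPKM. Of the sodium-proton exchangers of SLC9, 1 of 7 was higher (SLC9A2, 2.76 FPKM and 0) and 3 were lower, among them SLC9A3 at 0 and 0.639 FPKM.

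Zinc carriers belong to families that move the metal in opposite directions. SLC39 carriers bring zinc into the cytosol, and 5 of 11 were higher and 1 lower (median log2 ratio 0.42). SLC30 carriers move zinc out of the cytosol or into vesicles, and 2 of 6 were higher and 4 lower (median -1.40). SLC39A4, the intestinal zinc importer ZIP4, stood at 20.1 FPKM with IMP1 and 0.205 FPKM with IgG (log2 ratio 6.05), the largest ratio on the scale of FPKM + 0.1 of any member above 0 in both libraries. SLC39A7, which releases zinc from the endoplasmic reticulum, was at 31.3 and 5.88 FPKM (2.39), and the Golgi carrier SLC39A11 at 6.78 and 1.80 FPKM (1.86). The most abundant zinc carrier with IgG, SLC39A1, stood at 30.2 and 45 FPKM (-0.57), and SLC39A6 at 10.0 and 7.52 FPKM (0.41). The lower SLC39 member was SLC39A14 at 4.31 and 16.1 FPKM. In SLC30, the early secretory pathway carrier SLC30A5 was at 9.05 and 37.2 FPKM (-2.03) and SLC30A9 at 3.71 and 26.5 FPKM (-2.81), while SLC30A7 of the Golgi was at 4.00 and 0.270 FPKM. No test of the difference between both families was possible.

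Among carriers of other metals, 5 of 7 were higher and 1 lower. SLC40A1, the iron exporter ferroportin, was at 24.8 FPKM with IMP1 and 6.70 FPKM with IgG (log2 ratio 1.87), and SLC31A1, the copper importer, at 7.74 and 1.47 FPKM (2.31). The endosomal iron importer SLC11A2 went the other way at 8.91 and 17.9 FPKM (-1.0), just short of 2-fold on the scale of FPKM + 0.1. The lower member was the magnesium carrier SLC41A2 at 3.75 and 20.6 FPKM (-2.43), whereas its relative SLC41A3 stood at 2.93 and 0.280 FPKM (3.0).

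Nucleotide sugar carriers bring the substrates of glycosylation into the Golgi and endoplasmic reticulum, and 3 of 5 were lower and 1 higher. The carrier of CMP-sialic acid, SLC35A1, was at 8.43 FPKM with IMP1 and 22.7 FPKM with IgG (log2 ratio -1.42), and SLC35A5 at 3.36 and 20.8 FPKM (-2.60), whereas the UDP-galactose carrier SLC35A2 stood at 19.6 and 10.9 FPKM (0.84). The acetyl-CoA carrier SLC33A1 was at 7.87 and 21.4 FPKM (-1.43), and SLC37A4, which takes glucose-6-phosphate into the endoplasmic reticulum, at 14.7 and 23.8 FPKM (-0.69), while SLC37A1 of the same family stood at 2.37 FPKM and 0. Relatives of the letters B to G in the SLC35 family, which the name pattern leaves out, gave 5 of 16 higher and 3 lower (median 0.27). Among nucleoside carriers SLC29A1, the main equilibrative one, stood at 18 and 5.11 FPKM (1.80) and the monoamine carrier SLC29A4 at 2.20 and 9.50 FPKM (-2.06).

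**Figure D5:**
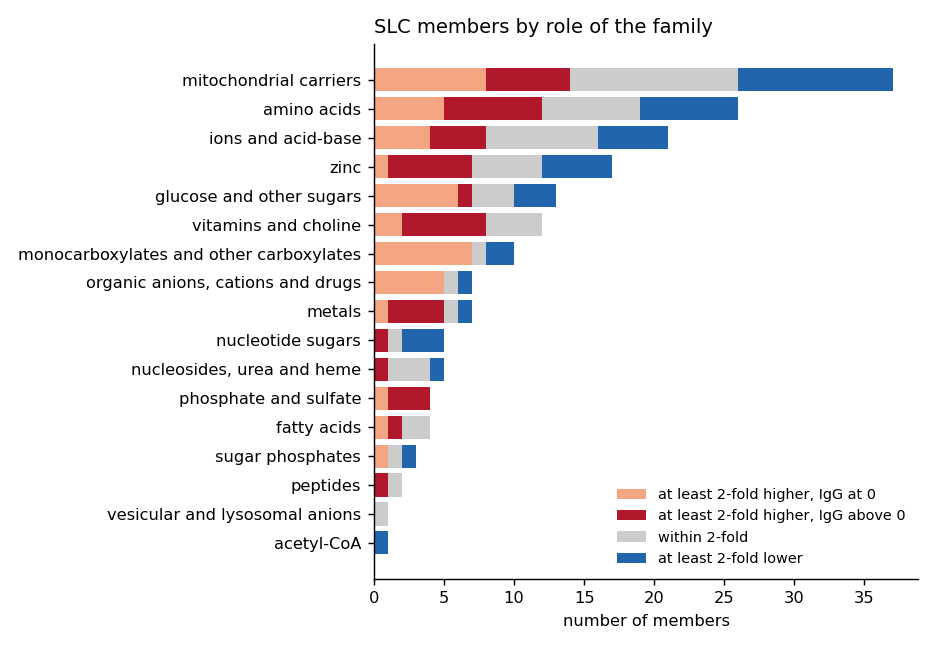
Bars count the members of each role with an at least 2-fold higher value with IMP1 (split by whether the IgG value was at 0), within 2-fold, or at least 2-fold lower, where the mitochondrial carriers are the whole SLC25 family with SLC25A17. Higher members outnumbered lower ones in 12 of the roles, and all 7 higher monocarboxylate carriers and all 5 higher organic ion carriers were at 0 in the IgG library.

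Within the mitochondrial family the phosphate and ADP/ATP carriers had log2 ratios above 0, SLC25A5 within 2-fold. SLC25A3 (ENSG00000075415, chr12:98987369-98995946), which imports phosphate for ATP synthesis, was the highest solute carrier of the IMP1 library at 76.5 FPKM and stood at 33.4 FPKM with IgG (log2 ratio 1.19). The ADP/ATP carriers, closely related proteins from separate genes, summed to 113.5 FPKM with IMP1 and 49.1 FPKM with IgG (1.21). SLC25A6 was at 61.1 and 18.7 FPKM (1.70), SLC25A5 at 49.9 and 30.1 FPKM (0.73), and SLC25A4, the form of heart and muscle, at 2.56 and 0.316 FPKM (2.68). SLC25A6 was thus the larger part with IMP1, at 53.8% of the sum against 38.1% with IgG, and SLC25A5 the smaller, at 44.0% against 61.3%.

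Carriers of mitochondrial substrates were spread over both sides. The citrate carrier SLC25A1 stood at 22.2 and 13 FPKM and the oxoglutarate carrier SLC25A11 at 8.97 and 5.77 FPKM, each within 2-fold. The dicarboxylate carrier SLC25A10 was at 5.34 FPKM with IMP1 and at 0 with IgG, in a span (chr17:79670387-79688042) that it shares with the mitochondrial ribosome gene MRPL12, itself at 25.7 and 20.7 FPKM. The aspartate and glutamate carriers parted, with SLC25A12 at 1.64 and 6.07 FPKM (log2 ratio -1.82) and SLC25A13 level at 2.45 and 2.38 FPKM. SLC25A12 shares its span with HAT1 (9.75 FPKM and 0) and METAP1D (0.439 FPKM and 0). The acylcarnitine carrier SLC25A20, which serves fatty acid oxidation, stood at 3.85 and 9.49 FPKM (-1.28).

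The lowest ratios of the family belonged to genes that were among its 5 highest with IgG. SLC25A40 (chr7:87462883-87538856, a span shared with DBF4 at 5.61 and 14.5 FPKM) was at 1.79 FPKM with IMP1 and 20.2 FPKM with IgG (log2 ratio -3.43). Its closest relative SLC25A39, which like it serves mitochondrial glutathione, stood on the other side at 31 and 13.4 FPKM (1.20). SLC25A46, an outer membrane protein of mitochondrial shape, was at 3.26 and 25.6 FPKM (-2.94), and SLC25A16 at 4.08 and 26.4 FPKM (-2.67). These 3 low genes were among the 8 smallest ratios of all members at 1 FPKM or more in both libraries. The mitoferrins, which import iron for heme and iron-sulfur clusters, were both above 0 on the log2 scale, with SLC25A28 at 6.38 and 3.86 FPKM (0.71) and SLC25A37 at 2.08 and 0.371 FPKM (2.21).

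The counts of this paragraph stand beside 36.0% of all genes higher and 37.9% lower at the same minimum. Mitochondrial transport genes outside the SLC names were close to balance, with 3 of 14 higher (21.4%), 4 lower (28.6%) and a median log2 ratio of 0.01. Both shares were below those of all genes. The outer membrane channel VDAC1 stood at 16.2 FPKM with IMP1 and 46 FPKM with IgG (-1.50), VDAC2 at 41.3 and 39.4 FPKM (0.07), and the pyruvate carrier subunits MPC1 and MPC2 at 7.31 and 5.00 FPKM and at 13.2 and 13.6 FPKM. ATP-driven ion pumps, which build the gradients that many solute carriers use, gave 7 of 13 higher and 2 lower (median 1.84). The beta subunits of the sodium pump parted, with ATP1B3 at 44.4 and 6.58 FPKM and ATP1B1 at 16.4 and 28.8 FPKM. ABC transporters, which burn ATP themselves, gave 11 of 26 higher (42.3%) and 9 lower (34.6%), near the shares of all genes (median 0.23). Of the partners that hold carriers at the membrane, 2 of 7 were higher and 2 lower. Basigin (BSG), which takes SLC16A1 and SLC16A3 to the surface, was abundant and level at 113 and 105 FPKM, and the scaffold PDZK1 was at 4.28 and 0.428 FPKM. Among the organic anion carriers of the SLCO names only SLCO1A2 passed the minimum, at 0 with IMP1 and 1.71 FPKM with IgG.

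The table gives a locus span that several genes can share, and 75 of the 175 members lie in such a span. Among the 100 members with a span of their own, 43 were higher and 28 lower, with a median log2 ratio of 1.06 for the plasma membrane class and 0.73 for SLC25. Among the 75 in shared spans, 40 were higher and 13 lower. Shares over all genes with own or shared spans are not given here, so this split cannot be read as particular to solute carriers. Members just inside the minimum were SLC31A2 (0.539 FPKM), SLC16A4 (0.555 FPKM), SLC4A11 (0.557 FPKM), SLC25A18 (0.575 FPKM) and SLC27A5 (0.583 FPKM) in the IMP1 library, of which SLC27A5 alone was above 0 with IgG at 0.0574 FPKM. Just outside it lay SLC25A33 (0.495 FPKM), SLC6A11 (0.480 FPKM), SLC39A2 (0.454 FPKM), SLC26A6 (0.437 FPKM) and SLC37A2 (0.431 FPKM), all at 0 with IgG. All 5 just inside had passed through the IMP1 library alone.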

How the data were processed

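RNA from an anti-IMP1 and an IgG immunoprecipitate of T47D cells was sequenced by the authors, with 1 library each. The authors deposited FPKM values per gene on hg19 per the labels. Aligner, FPKM software and annotation are not given in the sources used here. The deposited table also holds the authors' fold change, p-value and q-value, which were not used. Exact zeros, written as 1e-05, were set back to 0, and values under 0.0001 FPKM were treated as at 0. Positions start from 0 in the table, so 1 was added to each start.

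The log2 ratio of (FPKM + 0.1), IMP1 over IgG, was computed, which understates differences at low levels, and members past 2-fold were counted beside all genes at the same minimum. FPKM keep no read counts, so the depth is unknown and no interval is given. No p-value is given with 1 library per condition.

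The members, roles, membrane classes and lists were chosen with earlier results of these data known. Roles and classes follow textbook knowledge of each family. Named were the 8 largest and 8 smallest ratios at 1 FPKM or more in both libraries, the 8 highest members of each library, the 5 highest at 0 in the other library, the 3 highest of each role, the extremes of the 6 largest families, and fixed subunit and relative groups (SLC7A7, SLC7A9, SLC7A13 and SLC2A2 were not analysed here). Other genes were named after their values were seen. Of the members, 172 carry the same symbol in the current gene table. Alternatives were pseudocounts of 0.01 and 1, filters on low values, rescalings, a 4-fold threshold, members with their own span and fixed level ranges. The counting was tested on simulated data in which every IgG value was 1 FPKM or more. It therefore does not cover members at 0 or under 1 FPKM with IgG. Python 3.11.15, numpy 2.4.6, pandas 2.3.3 and matplotlib 3.10.9 were used.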

Additional observations from a re-analysis of the deposited data

How the results depend on the processing

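No paired analysis was possible because each antibody has a single library, which also leaves no replicate to omit. The 83 members at least 2-fold higher became 21 with at least 1 FPKM in both libraries, 41 above 0 in both, 130 with both libraries at the same sum and 43 with a span of their own. The 41 lower members became 25 with the IMP1 values rescaled to the median gene (a log2 shift of 0.79), 10 at the same sum (a shift of 1.88) and 22 at 4-fold. Both rescalings raise every IMP1 value, and 15 lower members turned above 0 at the same sum, where the log2 ratio became 0.53 for SLC38A2, 0.43 for SLC37A3, 0.44 for SLC35A1, 0.53 for SLC16A9 and 0.43 for SLC33A1. The median of all genes moved from -0.21 to 0.56 and 1.62, and that of the members from 0.77 to 1.56 and 2.64. The plasma membrane median of 1.36 became 0.73 with a pseudocount of 1, 0.23 at 1 FPKM or more in both, 0.24 above 0 in both, 2.14 at the median gene, 3.18 at the same sum and -0.0031 at 1 to 10 FPKM with IgG. The SLC25 median of 0.72 became -0.26 at 1 FPKM or more in both, 1.51 and 2.59 under the rescalings, and -0.77 at 1 to 10 FPKM with IgG. The difference of both medians, 0.64, became -0.0656 above 0 in both, 1.52 at 1 to 10 FPKM with IMP1, 0.77 at 1 to 10 FPKM with IgG, 0.0968 with a pseudocount of 1, 0.34 with no minimum and 0.34 with a span of their own. The 12 roles with more members higher than lower became 6 at 1 FPKM or more in both and 7 above 0 in both. The filters leave out members at 0 or at low level by construction, and the cause of the other moves was not tested. The span and the level ranges were chosen after seeing the data. Unknown depth limits every value at 0.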

Other observations

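Several genes are now named as solute carriers but appear in the table under older symbols that the name pattern does not match. PQLC2 (now SLC66A1), a lysosomal exporter of basic amino acids, stood at 1.99 FPKM with IMP1 and 1.08 FPKM with IgG, and PQLC1 (now SLC66A2) at 1.34 and 2.02 FPKM. PQLC3 (now SLC66A3) was at 8.46 and 25 FPKM, on the IgG side. DIRC2 (now SLC49A4) was nearly level at 2.14 and 1.80 FPKM, and MFSD7 (now SLC49A3) was at 2.22 FPKM with IMP1 and listed at 0 with IgG. These 5 genes are in none of the counts above.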
